A study of Bos taurus with 11 samples.

Results

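The transcriptome of the control bovine blastocyst at day 7 after fertilization is described from 3 of the 11 single embryos of the study, WT control embryos 1, 2 and 3. Their transcripts, all 12047 of the longer of 2 deposited tables, were ordered by the mean normalized count over the 3 embryos. The zygotes came from oocytes of abattoir ovaries that were matured and fertilized in vitro, and were injected with mRNA of BE3 and no guide RNA. BE3, a cytosine base editor, turns C into T where a guide RNA directs it, so the 3 embryos carried the editor without a target. They were cultured in vitro to the blastocyst stage, and each gave 1 Smart-seq2 library of polyadenylated RNA. The other groups, 4 GATA3 KO and 4 CDX2 KO embryos that also received guide RNAs, are not used here. The labels name neither the bull nor the oocyte batch of an embryo, so the spread between the 3 is that between single embryos and their libraries together.

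The bovine blastocyst consists of an outer epithelium, the trophectoderm (TE), which surrounds a fluid-filled cavity and the inner cell mass (ICM). TE cells pump sodium into the cavity, seal it with tight junctions and later form the placenta, and in ruminants they secrete interferon tau and pregnancy-associated glycoproteins. The ICM gives rise to the epiblast (EPI), from which the fetus develops, and to the primitive endoderm (PE, or hypoblast), which lines the yolk sac. Each library holds the RNA of a whole embryo, so fewer cells of a type and less RNA per cell cannot be told apart.

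The counts behind the normalized values could be recovered, and summed to 600885 in embryo 1, 386349 in embryo 2 and 282714 in embryo 3. The detection floor of 3 counts equals 4.99, 7.77 and 10.6 CPM (counts scaled to the total of the embryo) at these totals. These floors cover counting error only, since PCR copies without molecular identifiers are not independent molecules. At least 3 counts were found for 9373 transcripts in embryo 1, 10657 in embryo 2 and 8758 in embryo 3, and for 7477 in every embryo. Embryo 2 had the broadest repertoire although its total was not the highest. With the counts thinned to 282714 in each embryo, the numbers were 7773, 10008 and 8758. In the shorter table the same embryos hold 319759, 207802 and 150057 counts. Transcript by transcript, the count of the longer table was never the lower in embryo 1, and it was over 2-fold higher in 9 of 8440 cases. How the counting of the tables differed is not given in the sources used here, so the counting errors given with CVs and list shares are those of the shorter table, where they are larger, while the floors are those of the longer table. The pairs of embryos are separate libraries, since their counts in the shorter table differed by a chi-square of up to 4.15 per transcript and of at least 2.995, above the value of 1 that sampling alone gives.

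A small number of transcripts made up much of the signal. The 15 transcripts with a mean of at least 1000 normalized counts held 8.59% of the normalized total, and the 524 between 100 and 1000 held 42.1%. A further 4823 between 10 and 100 held 40.9%, and the 6288 between 1 and 10 held 8.30%. The first 100 transcripts took 27.1% of the counts in embryo 1, 24.1% in embryo 2 and 24.4% in embryo 3. Embryo 1 was the most concentrated, with 8.48% of its counts in the first 10 transcripts, against 6.44% and 5.74% in embryos 2 and 3.

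The first places in the order belonged to the epithelial cytoskeleton. ACTB (cytoplasmic beta-actin) was first, with 7569.9, 3515 and 4013 normalized counts in embryos 1, 2 and 3, a mean of 5033 ± 2211 (SD, n = 3). KRT8 and KRT18, the keratin pair of simple epithelia and of the TE, followed. KRT8 was at 6698, 4268 and 2459.9 and KRT18 at 4192, 3384 and 1706. Embryo 3 was lowest in both, 2.72-fold below the highest for KRT8 and 2.46-fold for KRT18 (2.31-fold and 2.11-fold in CPM). Embryo 1 was highest in KRT8 on both scales, but in KRT18 only with the size factors, since embryo 2 was highest in CPM. ACTG1 (gamma-actin) had 2939, 1439 and 1706, TMSB10 (an actin-binding thymosin) 2206, 1291 and 1925, and EZR (ezrin, which ties actin to the apical membrane) 2097, 1098 and 1141. With the size factors embryo 1 was highest and embryo 2 lowest in these 3 transcripts. In CPM this held for ACTG1, while embryo 3 was highest in TMSB10 and lowest in EZR. PFN1 (profilin) and MYL6 (a myosin light chain) completed the 8 cytoskeletal transcripts among the first 30. These places order counts, which also grow with transcript length, and say nothing of molecules per cell.

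Chaperones and ribosomal proteins filled most of the other places. HSP90AA1 (a cytosolic heat shock protein 90) took place 5 and was nearly level with the size factors, at 1932, 1855 and 1924 normalized counts, and HSPB1 (a small heat shock protein) had 1199, 1208 and 1350.3. HSPA8 (the constitutive heat shock protein 70) had 1505, 973 and 914, HSP90AB1 1203, 1094 and 1014 and PPIA (cyclophilin A) 1048, 701 and 857. Embryo 1 stood above the others in HSPA8 and PPIA, and the 3 embryos lay within 1.19-fold in the heat shock protein 90 pair (1.199-fold in CPM). Cytosolic ribosomal proteins took 10 of the first 30 places, led by RPLP0 with 1403, 895 and 1245 and RPS3 with 1161, 1045 and 1132, and 52 of the first 100.

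The remaining members of the first 30 cover iron, redox, matrix, sugar and junctions. FTH1 (ferritin heavy chain, which stores iron) had 2069.9, 707 and 1146 normalized counts, and PRDX1 (a peroxiredoxin) 1231, 805 and 963. FTH1 was 2.93-fold higher in embryo 1 than in embryo 2 (2.34-fold in CPM). FN1 (fibronectin, a matrix protein) had 939.5, 996 and 1062, within 1.13-fold (1.33-fold in CPM). SLC2A3 (the glucose transporter GLUT3) had 1189, 604 and 753 and CLDN6 (a tight junction claudin) 1384, 613 and 503. Both were highest in embryo 1. PABPC1, the cytoplasmic poly(A)-binding protein, had 945, 883 and 839, and CLIC1 (a chloride channel protein), the only one of the 30 in no list used here, had 1334, 689 and 569.7. The first 30 places of the 3 embryos taken singly shared 17 transcripts, and the first 100 shared 70.

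**Figure D1:**
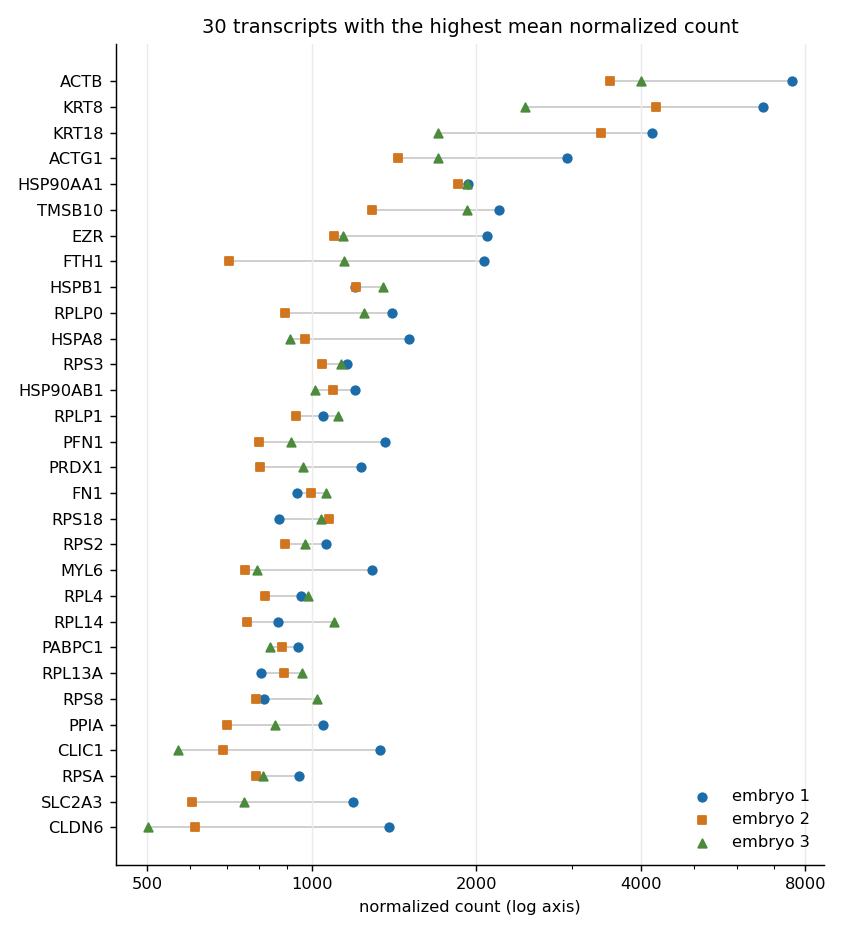
Normalized count (log axis) of the 30 transcripts with the highest mean, in rank order from the top, with circles, squares and triangles for WT control embryos 1, 2 and 3. ACTB runs from 3515 to 7569.9, while HSP90AA1 lies between 1855 and 1932.

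Both genes that the study edited in its other embryos were found in every control embryo, at different places in the count order. GATA3, a zinc finger factor of the TE, was at 129, 96.4 and 104 normalized counts, a mean of 109.8 ± 16.9 (SD, n = 3), and took place 496 in the order. CDX2, a homeobox factor of the TE, was at 8.88, 11.1 and 6.88, which rest on 14, 14 and 6 counts, and took place 5745. The 3 embryos differed by 1.34-fold in GATA3 and by 1.61-fold in CDX2 (1.07-fold and 1.71-fold in CPM). At 6 counts, the CDX2 value of embryo 3 lies close to the floor of 3 counts.

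Of 38 TE markers written down, 29 were listed in the table, 20 had a mean of at least 10 and 10 of at least 100. Beyond the keratins these included transporters, regulators and enzymes. SLC34A2 (a sodium phosphate cotransporter) had 841, 586 and 209 normalized counts, KRT19 535, 449 and 228, and DAB2 (an endocytic adaptor) 525, 264 and 236. Embryo 3 was lowest in each, and embryo 1 highest except in KRT19 in CPM, where embryo 2 was. SLC34A2 was 4.03-fold higher in embryo 1 than in embryo 3 (3.43-fold in CPM). PTGS2 (cyclooxygenase 2, of prostaglandin synthesis) had 226, 189 and 79.1, with embryos 1 and 2 above embryo 3. Among the transcription factors of the TE, GATA2 was at 201, 188 and 148, KLF5 at 154, 120.1 and 141 and TFAP2C at 103, 48.2 and 72.2. GRHL1 (a grainyhead factor of epithelia) was at 73.6, 29.2 and 37.8, WWTR1 (TAZ, the Hippo pathway coactivator) at 38.1, 27.6 and 19.5, and ARID3A at 33.0, 35.5 and 6.88. KLF5 and GATA2 lay within 1.28-fold and 1.36-fold over the embryos (1.11-fold and 1.35-fold in CPM), while ARID3A was 5.17-fold lower in embryo 3, at 6 counts, than in embryo 2 (5.49-fold in CPM). MSX2, ELF3 and DLX3 had means of 30.2, 19.3 and 11.3, each highest in embryo 2.

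The summed TE markers took 3.77%, 3.32% and 1.82% of the counts in embryos 1, 2 and 3. KRT8 and KRT18 supplied 75.7%, 75.4% and 70.8% of these sums. Without both, the remaining 27 genes took 0.917%, 0.817% and 0.530%, so embryo 3 was still lowest. In CPM, 11 of the 20 markers with a mean of at least 10 were lowest in embryo 3, where 30.5% of all transcripts at this level were lowest. Several later TE genes were at or near the floor. EOMES had 4, 3 and 3 counts, ELF5 0, 7 and 0, and HAND1 3, 6 and 0. The counts of EOMES do not show a difference at this depth. The 7 counts of ELF5 in embryo 2 lie above the floor and its 0 in the others below it, which is a value of 1 embryo with no test.

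The products of the ruminant trophoblast had low counts at this stage. Of 34 written, 23 were listed and 4 had a mean of at least 10. IFNT2 (an interferon tau gene, whose product signals pregnancy to the mother) had 4, 2 and 2 counts. Its family has near-identical copies, between which the counting of the authors may have split or dropped reads. PAG2 (a pregnancy-associated glycoprotein) had 62.8, 40.3 and 2.29 normalized counts, and PTGES (prostaglandin E synthase) 38.7, 18.2 and 3.44. Both were higher in embryos 1 and 2 than in embryo 3, where they rest on 2 and 3 counts. SSLP1 (a secreted trophoblast protein) went another way, with 2.54, 25.3 and 4.59. The other 13 PAG genes listed had means below 10. PAG1, PAG7, PAG17 and PAG19 were not listed, and whether reads of this family were split or dropped too was not tested. The list took 0.0398%, 0.0567% and 0.0191% of the counts (0.0350%, 0.0395% and 0.0107% in the shorter table, which lists 6 of the genes).

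Of 35 EPI and ICM markers written, 23 were listed and 13 had a mean of at least 10. POU5F1 (OCT4, a pluripotency factor that bovine TE also carries at this stage) had 133, 99.5 and 134 normalized counts, NANOG 20.3, 19.7 and 21.8 and SOX2 12.1, 22.1 and 40.1. NANOG lay within 1.10-fold over the embryos (1.26-fold in CPM), and SOX2 was 3.33-fold higher in embryo 3 than in embryo 1 (3.92-fold in CPM). KLF4 was at 18.4, 9.48 and 41.3, SALL4 at 54.6, 67.1 and 51.6 and OTX2 at 19.0, 20.5 and 21.8. As for SOX2, embryo 3 was highest for KLF4. The DNA methyltransferases DNMT3A and DNMT3B were at 413, 256 and 182 and at 43.8, 43.4 and 27.5, with embryo 3 lowest in both. IL6R (an interleukin 6 receptor chain) had 15.9, 30.02 and 45.9, lowest in embryo 1.

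The EPI and ICM markers together took 0.237%, 0.237% and 0.232% of the counts. In the shorter table these shares were 0.245%, 0.247% and 0.239%, and their exact binomial 95% intervals overlapped, at 0.228% to 0.262% in embryo 1, 0.226% to 0.269% in embryo 2 and 0.215% to 0.265% in embryo 3. DNMT3A, which is not restricted to the ICM, supplied 45.8%, 35.4% and 24.2% of these sums. Without it, a choice made after seeing the data that kept POU5F1, the other 22 genes took 0.128%, 0.153% and 0.176%, and embryo 3 was highest. In CPM, 7 of the 13 markers were highest in embryo 3, beside 36.7% of all transcripts. Embryo 3 thus had the lowest TE sum and the highest sum of these 22 genes, but not of the full list. These are values of a single embryo with no test.

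Of 31 PE markers written, 20 were listed and 11 had a mean of at least 10. FN1 led them and alone took 58.6%, 62.9% and 74.6% of their counts. The basement membrane genes differed among themselves. COL4A1 (a collagen IV chain) had 55.2, 56.1 and 57.3 normalized counts and the laminin chains LAMC1 and LAMB1 37.4, 41.9 and 42.4 and 85.6, 67.9 and 44.7. NID2 (nidogen) had 71.7, 31.6 and 9.17, APOE (an apolipoprotein) 60.3, 4.74 and 20.6 and APOA1 (the main protein of high density lipoprotein) 207, 224 and 84.8. Embryo 1 was highest in LAMB1, NID2 and APOE, and embryo 3 lowest in LAMB1, NID2 and APOA1. PDGFRA (the receptor that marks PE in several mammals) was at 30.4, 34.8 and 18.3 and HNF4A (a nuclear receptor of endoderm) at 14.6, 41.9 and 28.7. The later PE factors were scarce. SOX17 had 4, 3 and 0 counts, and GATA4 5, 12 and 1. The full list took 0.421%, 0.519% and 0.439% of the counts, with embryo 1 lowest. Without FN1 it took 0.174%, 0.192% and 0.112%, with embryo 3 lowest.

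**Figure D2:**
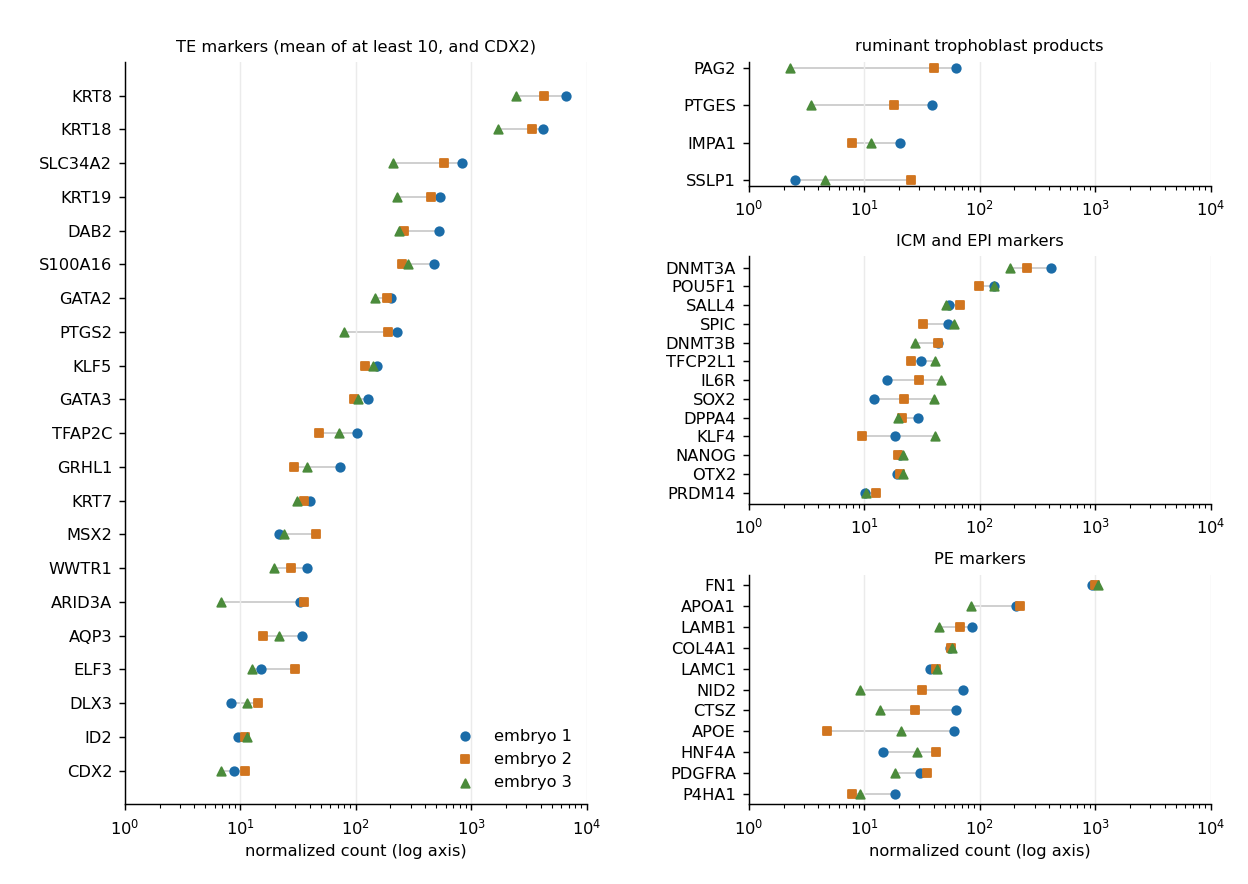
Normalized count (log axis) of the lineage markers with a mean of at least 10, and of CDX2, with circles, squares and triangles for WT control embryos 1, 2 and 3. KRT8 lies at 2460 or above and CDX2 at 11.1 or below, and SOX2 runs from 12.1 in embryo 1 to 40.1 in embryo 3.

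Among the pathways, the cytosolic ribosomal proteins took the largest share of the counts, 12.2% in embryo 1, 13.4% in embryo 2 and 14.6% in embryo 3. All 77 listed members had a mean of at least 100, and of the lists with at least 10 such members they had the smallest median coefficient of variation (CV). This value, the median of the SDs as percentages of the means, was 12.0%, beside 23.4% over all 539 transcripts with a mean of at least 100. CVs fall with level, and the median level of the 77 was 552. Over all transcripts with a mean from 300 to 1000, many of them ribosomal, the median CV was 18.7%. The highest embryo was over 2-fold above the lowest for 1 of the 77, RPS12, with 544, 269 and 483, beside 23.2% of the 539 transcripts. In CPM none of the 77 and 15.4% of the 539 were over 2-fold. Mitochondrial ribosomal proteins, which translate the few genes of the mitochondrion, took 0.872%, 0.735% and 0.951%, with MRPL12 highest at 86.9, 87.7 and 97.4. Translation factors took 2.26%, 1.97% and 2.42%, and EEF1A1 (the elongation factor that brings transfer RNA to the ribosome) had 1006, 528 and 697. EIF4A1, an RNA helicase of initiation, had 459, 412 and 649, highest in embryo 3.

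Chaperones took 2.97%, 2.97% and 2.90% of the counts, the proteasome and ubiquitin genes 1.14%, 1.06% and 1.13%, and the histone and chromatin genes 1.09%, 1.10% and 1.17%. None of the 12 proteasome genes or of the 13 spliceosome genes with a mean of at least 100 was over 2-fold apart. Of the others, 1 of the 22 chaperones was, PDIA3, with 2 of the 12 histone and chromatin genes and 2 of the 5 cell cycle genes, beside 23.2% of all 539 transcripts. In CPM the same numbers held except for the cell cycle, where none was, beside 15.4%. UBB (a polyubiquitin gene) had 688, 648 and 597 normalized counts, HMGB1 (a chromatin protein) 944, 660.3 and 782 and HNRNPA1 (an RNA-binding splicing regulator) 365, 329 and 334. NCL (nucleolin) had 457, 497 and 415 and NPM1 (nucleophosmin) 269, 205 and 152. Of these, UBB and HNRNPA1 lay within 1.15-fold (1.18-fold in CPM), and HMGB1 and NPM1 were highest in embryo 1. Cell cycle genes took 0.833%, 0.734% and 0.697%, with CKS2 (a subunit of cyclin-dependent kinases) at 239, 179 and 237 and UBE2C (which marks mitotic cyclins for destruction) at 207, 91.6 and 147.

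Energy metabolism was spread over many moderately abundant transcripts. The ATP synthase genes took 1.58%, 1.22% and 1.52% of the counts, respiratory complex I 1.16% and 1.17% in embryos 1 and 3, and complexes II to IV 1.23%, 1.05% and 1.34%. Embryo 2 was lowest in each of these 3 lists. ATP5F1A and ATP5F1B, the subunits of the catalytic core, had 685, 430.5 and 494 and 702, 351 and 470.0 normalized counts. All 38 complex I genes listed had a mean of at least 10, led by NDUFA4 with 454, 255 and 342. Glycolysis took 1.05%, 0.911% and 0.899%, led after SLC2A3 by GAPDH with 899, 679 and 661 and ALDOA with 473, 295 and 331. ENO1 (enolase) went against the list, with 129, 219 and 97.4, highest in embryo 2. In the tricarboxylic acid cycle CS (citrate synthase) had 834, 475 and 573 and MDH2 (malate dehydrogenase) 303, 172 and 134, both highest in embryo 1. Lipid genes took 0.374%, 0.320% and 0.334%, led by FABP3 (a fatty acid binding protein) with 188, 167 and 265, and SCD (stearoyl-CoA desaturase) was at 136, 138 and 40.1, lowest in embryo 3.

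Of the pathway lists, the summed shares with the widest range over the embryos were those of the blastocoel (2.68-fold, and 1.86-fold without ATP1B3), cholesterol synthesis (2.28-fold), junctions (1.74-fold) and keratin and actin genes (1.59-fold). Keratin and actin genes took 9.49%, 6.70% and 5.98% of the counts, and 11 of their 21 members with a mean of at least 100 were over 2-fold apart, beside 23.2% of the 539 transcripts, and 6 in CPM, beside 15.4%. Junction genes took 0.985%, 0.736% and 0.565%. EPCAM (an epithelial adhesion molecule) had 424, 262 and 172 normalized counts, CLDN4 209, 99.5 and 110.0 and DSP (desmoplakin, of desmosomes) 156, 162 and 43.6. Embryo 3 was lowest in EPCAM and DSP, and CDH1 (E-cadherin) had 88.8, 107 and 55.0. In CPM, 17 of the 24 junction genes with a mean of at least 10 were lowest in embryo 3, beside 30.5% of all transcripts at this level.

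The genes of ion and water transport, which fill the blastocoel, took 0.400%, 0.220% and 0.149% of the counts, but their members did not share 1 order. ATP1B3 supplied 65.3%, 54.3% and 49.9% of these sums, and without it the other 11 genes took 0.139%, 0.1004% and 0.0746%, a range of 1.86-fold. In CPM, 3 of the 7 with a mean of at least 10 were lowest in embryo 3, beside 30.5% of all transcripts. ATP1B3, a beta subunit of the sodium pump, had 995, 364 and 241 normalized counts, with embryo 1 highest and embryo 3 lowest. The fold from embryo 1 to embryo 3 was 4.13, and 3.51 in CPM. AQP3 (a water and glycerol channel) was at 34.3, 15.8 and 21.8, and SCNN1A (a subunit of the epithelial sodium channel) at 29.2, 30.8 and 30.9. Embryo 2 was lowest in AQP3 and embryo 1 in SCNN1A.

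Cholesterol synthesis took 0.411%, 0.298% and 0.180% of the counts. HMGCS1, which makes HMG-CoA, had 235, 104 and 43.6 normalized counts. MSMO1 (a sterol oxidase) had 181, 68.7 and 40.1 and FDPS (farnesyl diphosphate synthase) 147, 115 and 50.4. All 3 were highest in embryo 1 and lowest in embryo 3. SREBF2, the transcription factor that drives the pathway, differed by only 1.44-fold, at 105, 99.5 and 73.4. In CPM, 15 of the 17 members with a mean of at least 10 were lowest in embryo 3, again beside 30.5%.

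Antioxidant enzymes were highest in embryo 1 (1.53%, 0.997% and 1.22% of the counts), where GPX1 (a glutathione peroxidase) had 244, 57.7 and 139 normalized counts. Of the secretory pathway, SSR4 (of the translocon) had 264, 276 and 232 and RPN2 (of N-glycosylation) 164, 111 and 63.0. Embryo 3 was lowest in RPN2, while SSR4 lay within 1.19-fold (1.31-fold in CPM). In the polyamine and one-carbon list ODC1 (ornithine decarboxylase) had 235, 180.1 and 299 and GNMT (glycine N-methyltransferase) 139.6, 56.9 and 119. Of the stress and apoptosis list, 16 of 26 genes listed had a mean of at least 10. ATF4 (of the integrated stress response) had 160.5, 193 and 233, and DDIT3 (CHOP, downstream of ATF4) 13.32, 14.2 and 59.6. Both were highest in embryo 3. Of the 28 signalling genes listed, 12 had a mean of at least 10, beside 5362 of all 12047 transcripts, and none of at least 100, beside 539. IGFBP2 (an insulin-like growth factor binding protein) led with 43.1, 42.7 and 41.3, and FGFR4, a fibroblast growth factor receptor, had 19.7, 52.9 and 19.5, highest in embryo 2.

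**Figure D3:**
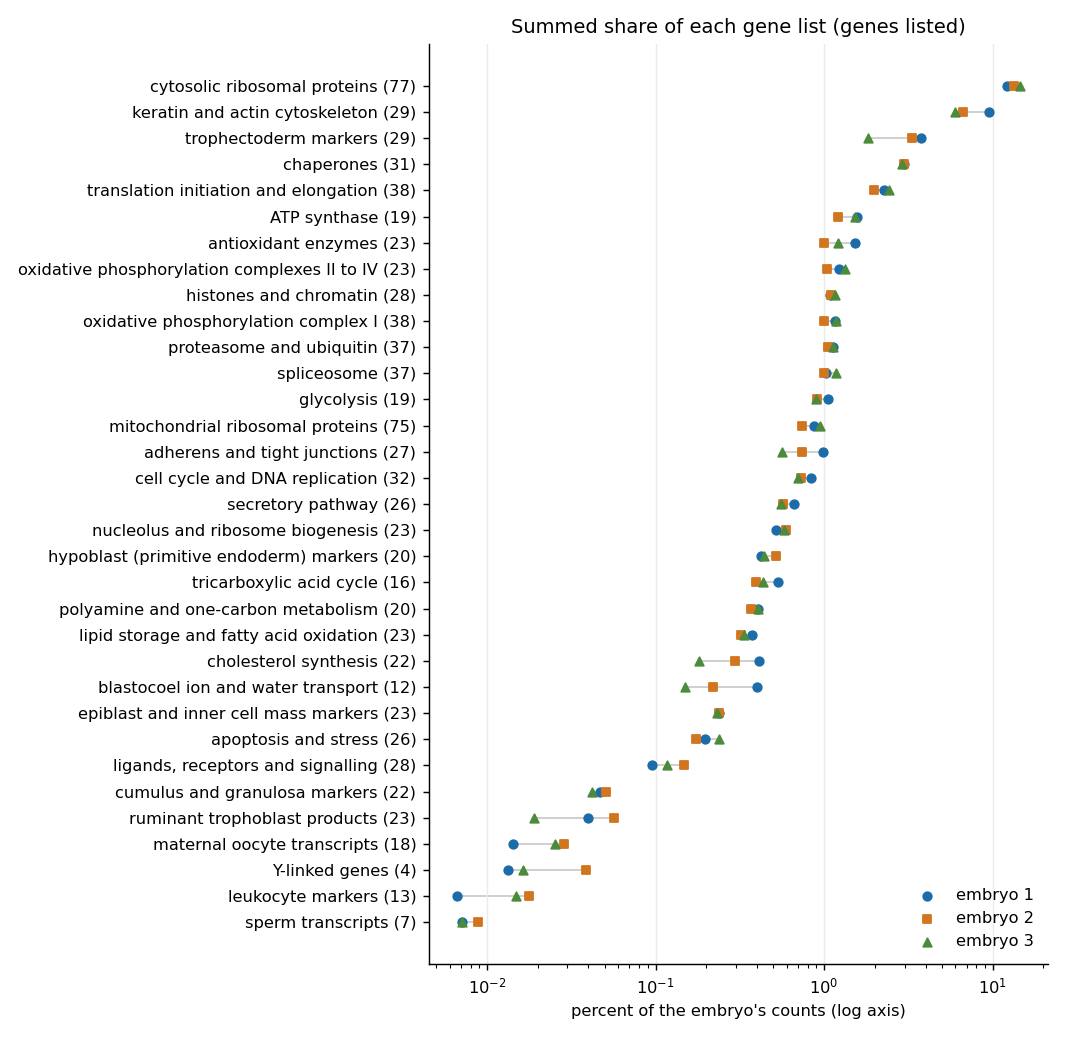
Summed share of each embryo's counts (log axis) for 33 gene lists, with the number of genes listed in parentheses and circles, squares and triangles for WT control embryos 1, 2 and 3. Chaperones lie between 2.90% and 2.97%, while the cholesterol list runs from 0.180% to 0.411%.

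Which embryo was highest depended on the scaling. With the size factors of the authors, 45.4% of the 5362 transcripts with a mean of at least 10 were highest in embryo 1, 23.1% in embryo 2 and 31.5% in embryo 3. In CPM the numbers were 1608, 1788 and 1966 of 5362. For the 539 transcripts with a mean of at least 100, the median log2 difference of embryo 1 from the mean of the other two was 0.34 with the size factors and 0.07 in CPM. For embryo 2 the medians were -0.37 and -0.17. For this reason the lists above are compared as shares of counts, and the order of the embryos in a single gene is that with the size factors unless CPM is named.

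The order of transcripts was similar in the 3 embryos, while single levels often differed. Of the 5362 transcripts, 2415 were over 2-fold apart between the highest and lowest embryo, and 2285 in CPM. On log2(normalized count + 1) over the 5362 transcripts, Pearson's r was 0.83 for embryos 1 and 2, 0.81 for embryos 1 and 3 and 0.81 for embryos 2 and 3, and Spearman's rho 0.75, 0.74 and 0.71. Over the 539 transcripts with a mean of at least 100, r was 0.89, 0.84 and 0.88. These are correlations across transcripts, which are not independent replicates and share transcript length and the counting, so they describe the libraries and carry no p-value.

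**Figure D4:**
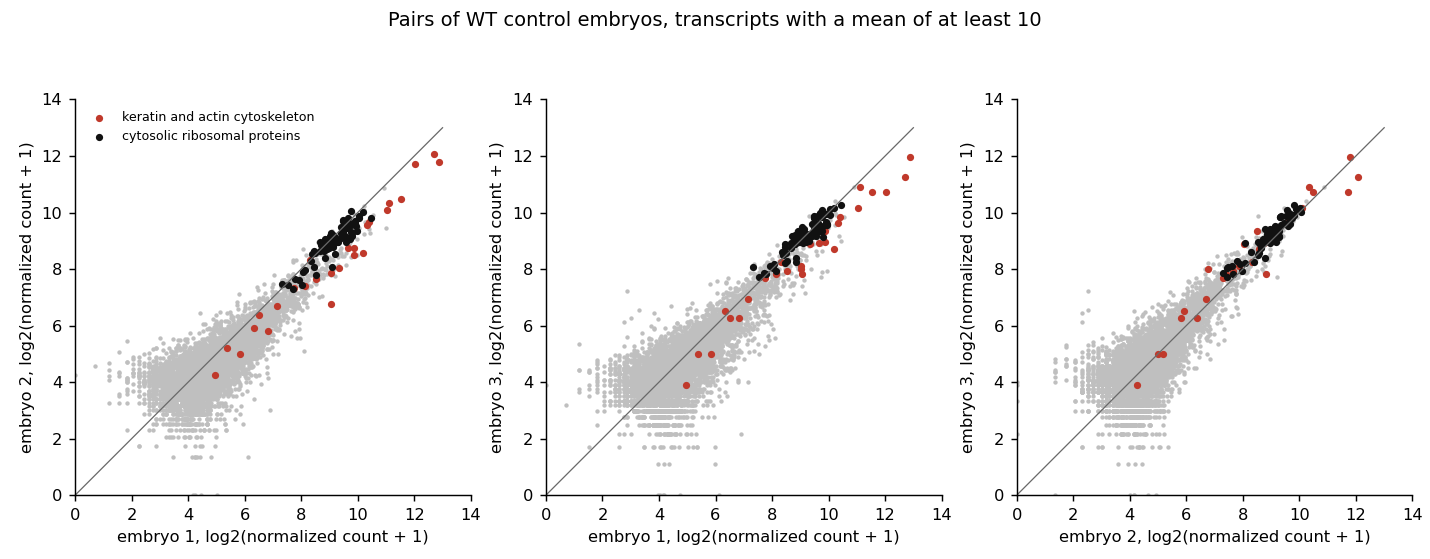
log2(normalized count + 1) of each pair of WT control embryos for 5362 transcripts of mean 10 or more (grey), with the keratin and actin list in red, the cytosolic ribosomal proteins in black and the line of equal values. The ribosomal proteins lie along the line and ACTB and KRT8 lie below it in the panels with embryo 1 on the horizontal axis.

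The spread between embryos was larger than counting error at every level. The median CV was 36.8% for transcripts with a mean from 10 to 30, 28.4% from 30 to 100, 24.6% from 100 to 300 and 18.7% from 300 to 1000. The expected CV from counting alone, by the counts of the shorter table, was 30.7%, 18.6%, 10.4% and 5.63%. A CV of 3 values falls below its expected size more often than not, so these values overstate counting error beside the medians. The gap between the median CV and counting error was smallest at the lowest of these levels. Above 1000 the median was 28.8% over 15 transcripts, beside 3.42% from counting, and the 7 cytoskeletal transcripts there had CVs of 25.9% to 47.5%.

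In the 539 transcripts whose mean was 100 or more, RPL11 had the smallest CV, with 526, 510.2 and 519 normalized counts, followed by LGALS1 (galectin 1) with 519, 514 and 501 and TUFM (the mitochondrial elongation factor) with 135, 129.5 and 133. The next were HSP90AA1, MYH9 (non-muscle myosin), RPL18, LOC281806, RPS23, VCP (an ATPase that extracts ubiquitinated proteins) and RPS7, all with a CV of 4.03% or less. With the size factors of the authors these 10 transcripts lay within 1.08-fold. In CPM their range was up to 1.33-fold, so the evenness is relative to the size factors. These CVs are also below the median counting error at their levels, so the order among these transcripts is finer than the counts resolve.

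The largest CVs were those of transcripts that were high in embryo 1. B2M (beta-2-microglobulin, the light chain of MHC class I) had 275, 33.2 and 45.9 normalized counts, CTSL (a lysosomal cathepsin) 216, 55.3 and 37.8 and LGALS3 (galectin 3) 249, 46.6 and 65.3. Embryo 1 was 8.30-fold above the lowest embryo in B2M, 5.72-fold in CTSL and 5.34-fold in LGALS3, and 6.64-fold, 4.86-fold and 4.27-fold in CPM. SFN (the epithelial 14-3-3 sigma) had 262, 92.4 and 58.5, CD9 (a tetraspanin) 579, 216 and 142 and ANXA1 (annexin A1) 232, 45.8 and 108. The rest of the 10 largest CVs were ATP1B3 and HMGCS1, described above, PLS1 (plastin, of microvilli) with 186, 104 and 30.9 and YWHAQ (14-3-3 theta) with 423, 131 and 138. All 10 were highest in embryo 1, beside 345 of the 539 transcripts (218 in CPM). In B2M, CTSL, LGALS3 and SFN, embryos 2 and 3 each lay below the mean required of the 539 transcripts. These genes passed that filter only through embryo 1, so the count of 10 is in part set by the filter and is no support. Embryo 1 also had the most counts, and the part of depth in its high values for these 10 transcripts was not tested.

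Among the 539 transcripts, the 5 furthest above the mean of the other two in embryo 2 were ENO1, PGD (of the pentose phosphate pathway), CTSD (cathepsin D), MICALL2 (of tight junction traffic) and DSP. PGD had 86.3, 164 and 94.0 normalized counts, CTSD 123, 162 and 58.5 and MICALL2 88.2, 154 and 91.7. For DSP this rests on the low value of embryo 3, since embryos 1 and 2 were close. In embryo 3 they were BRD2, TRA2B, RBBP6, SLC6A8 and CDC5L. BRD2 (a bromodomain protein) had 66.0, 65.6 and 191, TRA2B (a splicing regulator) 85.0, 80.6 and 204 and RBBP6 (a ubiquitin ligase that binds RB) 81.8, 87.7 and 180.0. SLC6A8 (the creatine transporter) had 81.8, 67.9 and 186 and CDC5L (a spliceosome component) 89.4, 64.0 and 162. These 5 were chosen as high in embryo 3 with the size factors, and embryo 3 was highest in CPM too. In BRD2 it was 2.92-fold above the lowest (3.41-fold in CPM).

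**Figure D5:**
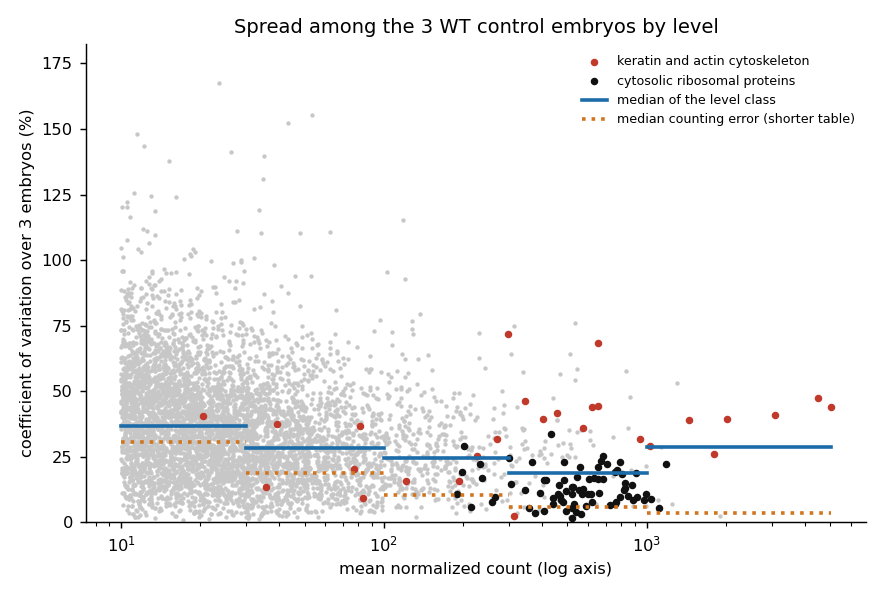
Coefficient of variation over the 3 WT control embryos against the mean normalized count (log axis) for 5362 transcripts of mean 10 or more, with medians per level (solid lines), the median counting error by the shorter table (dotted lines), the keratin and actin list in red and the cytosolic ribosomal proteins in black. Median CVs lie at 36.8% in the lowest class and 18.7% between 300 and 1000, and at 28.8% above a mean of 1000.

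Markers of cells other than the blastocyst were low. Of 18 oocyte transcripts listed, 2 had a mean of at least 10, RNF114 and CNOT6L, which are not restricted to oocytes, and the list took 0.0143%, 0.0287% and 0.0255% of the counts, a mean of 0.0228% that was 0.0138% in the shorter table, which lists 7 of them. NLRP5 (a maternal factor of the oocyte cortex) had 4, 6 and 12 counts and GDF9 (an oocyte growth factor) was listed at 0 in at least 1 embryo. Of 22 cumulus and granulosa genes, 5 had a mean of at least 10. HSD3B1 (a steroid dehydrogenase) had 69.1, 1.58 and 0 normalized counts, high in embryo 1 and at 2 and 0 counts in the others, COL1A2 (a collagen I chain) had 45.7, 19.0 and 12.6 and COL1A1 3.81, 28.4 and 16.05. CYP11A1, the first enzyme of steroid synthesis, had 17.8, 10.3 and 5.73 and NR5A2, also a factor of early embryos, 3.81, 16.6 and 18.3. Of the 22, 11 were at 0 in at least 1 embryo, among them PTX3, INHBA, DCN and VCAN, and 11 in none, among them CYP19A1 (aromatase) with 3, 4 and 7 counts, FSHR, HAS2, AMHR2 and STAR. The list took 0.0466%, 0.0510% and 0.0421% of the counts, and its part in the results above was not tested. None of 13 leukocyte genes had a mean of at least 10, and the list took 0.00666%, 0.0179% and 0.0149% (0.00281%, 0.00722% and 0.00400% in the shorter table, which lists 3 of them). Of 7 sperm genes, ODF2 alone did, at 18.4, 15.0 and 16.05, and PRM1 (protamine) had 2, 2 and 0 counts. Y-linked transcripts were found in all 3 embryos, with 80, 149 and 46 counts. TSPY, a multicopy gene whose reads its copies share, had 54, 111 and 33 of these, and DDX3Y 19, 20 and 5.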

How the data were processed

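Single day 7 blastocysts were sequenced by Smart-seq2. Per the authors' methods, Trimmomatic trimmed the reads, HISAT2 aligned them to ARS-UCD1.2, featureCounts assigned them to transcripts and DESeq2 scaled the result. The deposited signal of an embryo is therefore its count over its size factor, estimated together with KO embryos. The 3 WT control columns of the longer table were used, with those of the shorter table as an alternative, and 8 columns of KO embryos and the authors' comparison columns (fold changes and p-values) were not. In each column used, 100.0% of the values were whole multiples of 1 step (tolerance 0.01), which gave the counts (282714 to 600885 per embryo). Symbols came from RefSeq (gene table, ARS-UCD2.0) and named 98.6% of the transcripts. Coordinates, sequences and transcript lengths were not used here.

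Levels are means ± SD over the 3 embryos. List shares are percentages of an embryo's counts, and exact (Clopper-Pearson) 95% intervals, taken from the shorter table, cover counting error only. Correlations used log2(normalized count + 1) for means of at least 10, and CVs and 2-fold ranges used means of at least 100. With a single group no test between groups was made. The genes named were GATA3 and CDX2, the first 30 transcripts, lineage markers, the 3 highest and the most uneven member of each pathway list, the 10 largest and 10 smallest CVs and 5 transcripts per embryo. Some genes that this rule names are not reported here. Further members of a list were named after their values were seen. The members and the 33 lists were chosen with earlier results of these data known. Alternatives were other scalings, pseudocounts, filters and floors, thinned counts, the shorter table and leaving out each embryo. The code was tested on simulated counts and ran in Python 3.11.15 with numpy 2.4.6, pandas 2.3.3, scipy 1.17.1 and matplotlib 3.10.9.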

Additional observations from a re-analysis of the deposited data

How the results depend on the processing

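The mean Pearson's r of 0.82 was 0.80 with a pseudocount of 0.1, 0.85 with a pseudocount of 5, 0.87 for means of at least 100, 0.80 with thinned counts, 0.83 in the shorter table and 0.80 to 0.82 with an embryo left out. The median CV of 23.4% was 32.7% for means of at least 10, 18.2% for means of at least 500 and 17.2% to 24.9% with an embryo left out, and lay between 19.4% and 23.7% under 3 other scalings. The 125 transcripts over 2-fold apart were 83 in CPM and 60 of 367 in the shorter table. With an embryo left out they were 34 without embryo 1, 66 without embryo 2 and 79 without embryo 3. A range over 2 of the embryos cannot exceed that over all 3, so this fall does not bear on the 125. The 7477 transcripts found in every embryo were 4277 at a floor of 10 counts. Of the first 30 transcripts, 28 were kept in CPM, 29 in the shorter table, 25 without embryo 1, 29 without embryo 2 and 28 without embryo 3. Of the 33 list shares, 4 moved by more than the spread between embryos in the shorter table (EPI and ICM, oocyte, cumulus and leukocyte lists). None moved with an embryo left out, but leaving out 1 of 3 values cannot move a mean by more than their SD. That setting therefore decides nothing for the list shares. Of the 247 gene levels, all stayed within 1 SD in CPM, which were rescaled to the same mean total. The shorter table for order, agreement, CV and the 2-fold count, CPM for the order, and lists without their leading genes were chosen after seeing the data. Lengths per transcript were not used here, so counts per kilobase were not run. No paired analysis was possible because only 1 group was described.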

Other observations

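In 6 further gene groups, chosen after their members' values were seen, the embryos differed as follows, with no test. Lysosomal genes took 0.613%, 0.461% and 0.353% of the counts in embryos 1, 2 and 3. All 4 members with a mean of at least 100 were over 2-fold apart on both scales, beside 23.2% of all transcripts at this level with the size factors and 15.4% in CPM. CTSL passed this filter only through embryo 1, and the group was chosen by its values, so the count of 4 is no support. CTSV (a cathepsin) had 775, 279.6 and 356 normalized counts and CTSH 163, 103 and 45.9. The vacuolar proton pump, which acidifies lysosomes, took 0.449%, 0.275% and 0.302%, and ATP6V0C, a subunit of its membrane ring, had 531, 218 and 169.7. LAPTM4B, a lysosomal membrane protein, went the other way, with 20.3, 86.9 and 103, lowest in embryo 1.

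Annexins, which bind membranes with calcium, took 0.477%, 0.236% and 0.250% of the counts. ANXA2 had 1174, 379 and 415 normalized counts and its partner S100A10 526, 108 and 253, both highest in embryo 1 and lowest in embryo 2, and ANXA6 was nearly even at 126, 121 and 98.6. Galectins, which bind sugars, took 0.219%, 0.235% and 0.233%, a sum whose members differed. LGALS3 was highest in embryo 1, while LGALS4 had 55.2, 137 and 175, lowest in embryo 1, and LGALS1 was even. S100 proteins took 0.440%, 0.254% and 0.362%, with S100A2 at 9.52, 5.53 and 41.3 and S100A11 at 13.96, 5.53 and 39.0, both highest in embryo 3. Of the antigen presentation genes, TAP1, TAP2, TAPBP and CD74 had means below 10 although B2M did not.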
